A study of Homo sapiens with 6 samples.

Results

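The heterogeneous nuclear ribonucleoproteins (hnRNPs) and the SR proteins are among the main families of proteins that decide where a pre-mRNA is spliced. Their genes were taken by name from the deposited table, as every gene whose symbol begins with HNRNP and every gene named SRSF and a number, leaving out pseudogenes and antisense RNAs. This gave 34 of the 17042 genes in the table, 22 hnRNP genes and 12 SR genes. All 34 passed the filter on low counts. The libraries were made from polyadenylated RNA of THP-1, a human monocytic leukaemia line. Every culture first received PMA, a phorbol ester that makes these cells macrophage-like, at 100 ng/mL for 24 hours, and later interleukin-4 (IL-4), which drives macrophages toward a tissue-repair state, at 20 ng/mL for 24 hours. The 3 control libraries were labelled wild type, and the labels do not say what those cells received in place of siRNA. The 3 knockdown libraries came from cells transfected before IL-4, with a lipid reagent, with small interfering RNA (siRNA) against RP11-184M15.1, a long noncoding RNA. The level of the targeted RNA is not analysed here, so its reduction was not checked. Nothing in the labels says that libraries of a group came from separate cultures, so p-values reflect the spread among the libraries alone, and that spread may be technical.

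SR proteins hold RNA-recognition motifs followed by a domain of alternating arginine and serine (the RS domain). They bind exonic enhancers and help the spliceosome recognise nearby splice sites. Many hnRNPs coat nascent transcripts and often oppose that recognition, and several shuttle to the cytoplasm, where they act on mRNA stability and translation. Many members of both families regulate their own mRNAs by including exons that carry a premature stop codon and send the transcript to nonsense-mediated decay. Several hnRNPs are known partners of long noncoding RNAs. In macrophages, some of them take part in the splicing and decay of cytokine mRNAs.

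The family difference is visible in the coding sequences. The stretches below are the 50-codon windows richest in the family's hallmark in SRSF1 (codons 198 to 247 of 248, transcript ENST00000258962.4), SRSF7 (codons 123 to 172 of 238, ENST00000313117.10) and HNRNPUL1 (codons 609 to 658 of 856, ENST00000392006.7), the members with the smallest p-values of each family. Sequences are from GENCODE 29, 5′ to 3′ and in frame. Capitals mark adjacent arginine and serine codons in the SR genes and arginine-glycine-glycine codons in HNRNPUL1.
SRSF1: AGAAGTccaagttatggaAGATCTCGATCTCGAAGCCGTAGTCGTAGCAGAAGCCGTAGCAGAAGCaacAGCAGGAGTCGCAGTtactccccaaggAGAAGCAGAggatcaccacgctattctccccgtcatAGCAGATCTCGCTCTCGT
SRSF7: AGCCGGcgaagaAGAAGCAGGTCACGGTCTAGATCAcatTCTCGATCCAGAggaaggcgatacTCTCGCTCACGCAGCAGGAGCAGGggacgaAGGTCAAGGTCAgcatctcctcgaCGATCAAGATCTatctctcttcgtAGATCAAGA
HNRNPUL1: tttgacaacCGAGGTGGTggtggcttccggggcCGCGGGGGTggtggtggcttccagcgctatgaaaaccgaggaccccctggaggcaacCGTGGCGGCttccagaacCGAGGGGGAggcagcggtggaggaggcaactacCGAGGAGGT
The SRSF1 window held 27 such arginine-serine pairs and the SRSF7 window 26, and the HNRNPUL1 window held 5 arginine-glycine-glycine triplets, all that its coding sequence has. Over whole coding sequences, arginine-serine pairs ran from 4.07 per 100 codons in SRSF9 to 23.5 in SRSF2 among the 12 SR genes, with a median of 17.6. Among the 22 hnRNP genes they ran from 0.24 in HNRNPF to 2.64 in HNRNPA2B1, with a median of 1.14, so the families did not overlap. Arginine-glycine-glycine triplets, an RNA-binding element of hnRNPs, occurred in 17 of the 22 hnRNP genes and in 4 of the 12 SR genes (SRSF1, SRSF5, SRSF8 and SRSF9).

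**Figure D1:**
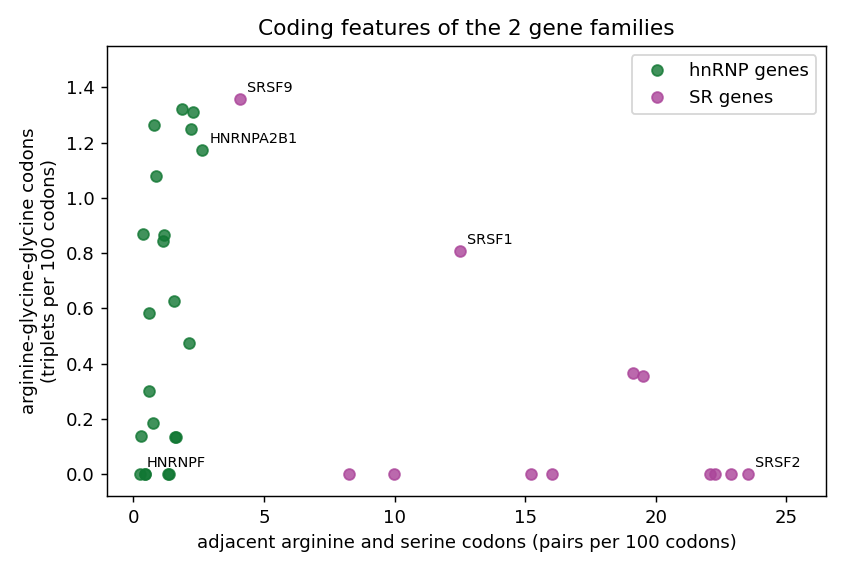
Each point is 1 gene, with adjacent arginine and serine codons per 100 codons on the x axis and arginine-glycine-glycine triplets per 100 codons on the y axis. All 22 hnRNP genes lie at or below 2.64 on the x axis and all 12 SR genes at or above 4.07.

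Knockdown libraries differed little from controls in either family. The edgeR quasi-likelihood test, run over 13405 genes with a threshold of 0.05 on the adjusted p, called 1 of the 34 genes: SRSF1, which fell by 13.3%. That is 2.94% of the members, close to the 2.83% of all genes that passed (1.61% lower, 1.22% higher). No member rose past the threshold, and none of the 22 hnRNP genes passed in either direction. At an unadjusted p under 0.05 there were 8 lower members (23.5%, of which 6 hnRNP genes) and 0 higher, against 8.21% of all genes lower and 6.89% higher. DESeq2 and limma-voom each called the same single member, beside 2.69% and 2.76% of all genes.

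Most fold changes lay slightly below 0. The log2 fold change was negative in 25 of the 34 genes (73.5%), in 15 of 22 hnRNP genes and 10 of 12 SR genes. The same held for 50.6% of all genes tested, for 50.9% of genes at least as abundant as the scarcest member and for 53.1% of the 7631 genes with a mean of at least 4 log2 CPM. CPM are counts scaled to a common library total. The members' median was -0.08 (-0.07 for hnRNP genes and -0.09 for SR genes), where all genes had -0.0019 and the genes of at least 4 log2 CPM had -0.0081. Without control replicate 1 the members' median was -0.05. In 14 members (41.2%) all 3 knockdown libraries lay below all 3 controls, and in 2 members (5.88%) above. Among all genes these shares were 10.4% and 9.61%, and among those of at least 4 log2 CPM 13.4% and 10.7%. Leaving out 1 library at a time gave 15 to 18 such lower members, with 14.5% to 17.6% of all genes. Leaving out a library cannot undo a separation, so these counts could only stay or rise. Members are expressed in the same cells and libraries and are not independent of each other, and no test was made of the list as a whole.

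By library, the median ratio of the members to their control mean was 0.01, -0.01 and 0.0023 on the log2 scale in control replicates 1 to 3, and -0.07, -0.08 and -0.08 in the knockdown replicates. Summed over the 34 genes, transcripts took 0.668%, 0.646% and 0.648% of the normalised counts in the controls and 0.626%, 0.615% and 0.625% in knockdown. Control replicate 1 was the highest library for 15 members and knockdown replicate 2 the lowest for 10. Over 13106 to 13210 genes, control replicate 1 differed more from replicates 2 and 3 than these did from each other. Chi-square per degree of freedom, which is 1 for counting error alone, was 3.98 and 6.79, against 2.79. How often each of the 6 libraries was highest or lowest over all genes was not counted. In these libraries mitochondrially encoded mRNA took 1.89%, 2.3% and 2.54% of the counts in the controls and 2.02% to 2.1% in knockdown, and 12 of its 13 genes had log2 fold changes below 0 (median -0.16, 1 past the threshold). Its part in the members' shift was not tested.

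**Figure D2:**
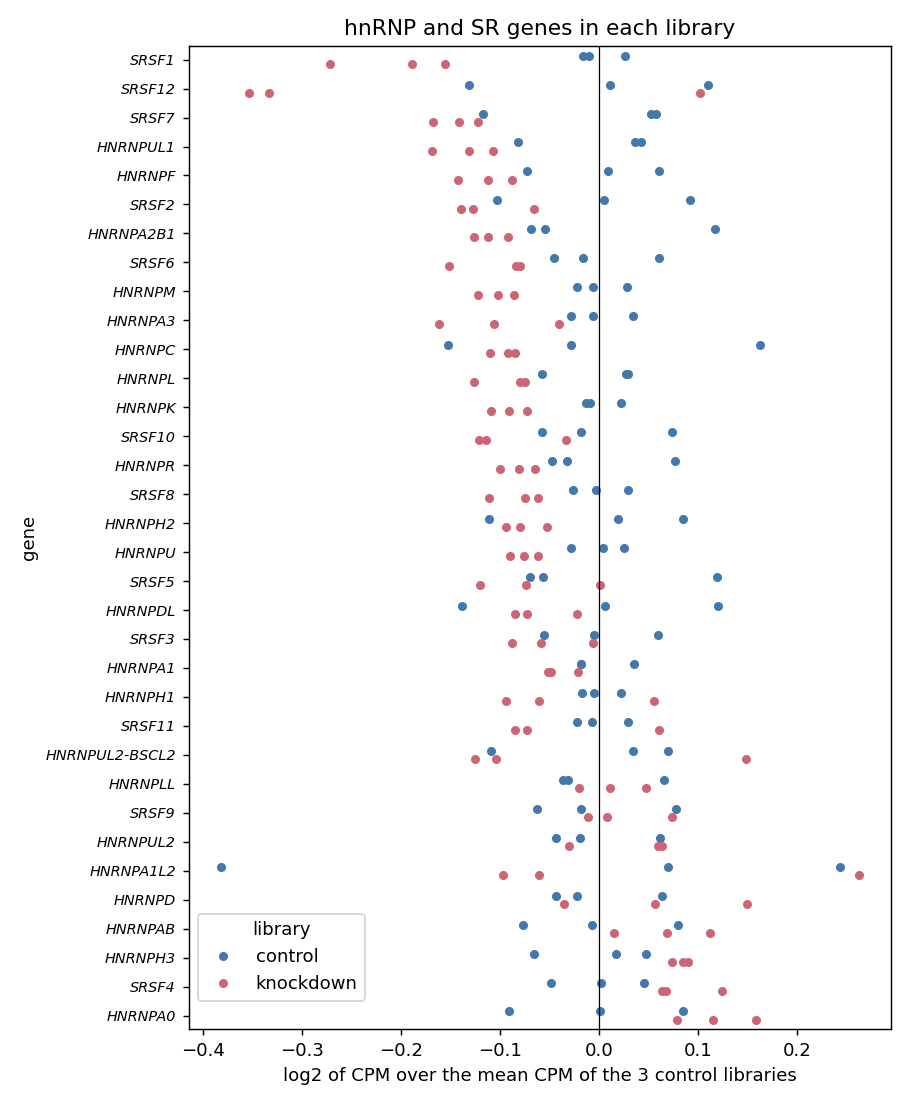
Each point is 1 library, and the x axis is the log2 of its CPM over the gene's mean CPM in the 3 controls, with genes ordered by fold change. Knockdown points lie left of all control points in 14 genes and right of them in 2 (SRSF4 and HNRNPH3).

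**Figure D3:**
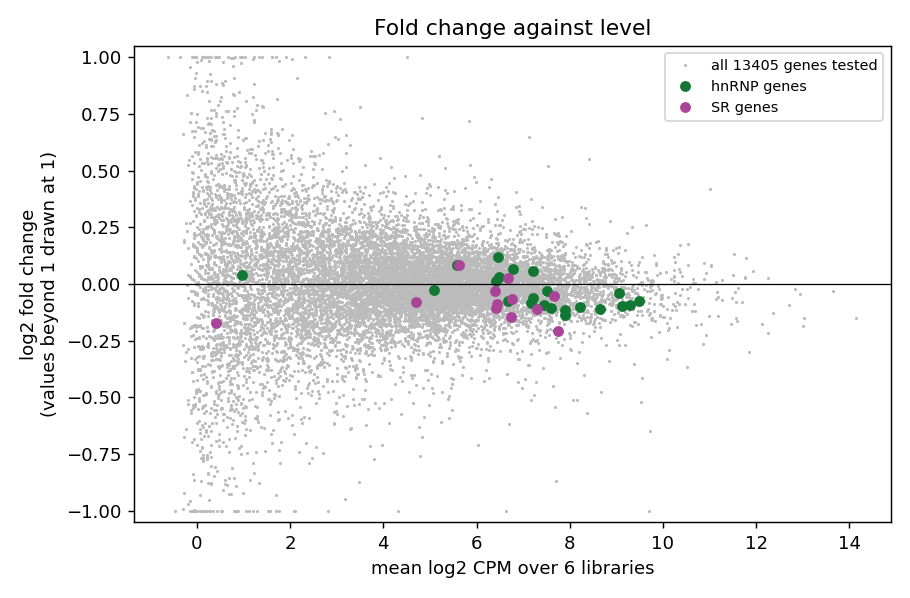
Mean log2 CPM is on the x axis and log2 fold change on the y axis for 13405 tested genes in grey, with values beyond 1 drawn at 1, and for the hnRNP and SR genes in colour. All 34 members lie between -0.21 and 0.12 on the y axis.

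SRSF1 is the founding SR protein, which shifts the choice between competing splice sites and also shuttles to the cytoplasm. Its gene (ENSG00000136450.12, GRCh38 chromosome 17, 58003360 to 58007346, minus strand) stood at 234, 227 and 228 CPM in the control libraries and 202, 190.3 and 206 CPM in the knockdown libraries. Every knockdown library was below every control, and the gap between the groups was wider than the spread within either. Its mean went from 229.8 ± 3.66 to 199 ± 8.17 CPM (SD, n = 3 each), a log2 fold change of -0.21 ± 0.05 SE (edgeR adjusted p = 0.0233). The 95% interval of the change ran from -18.9% to -7.24%. The call depended on which libraries entered. Leaving out control replicate 1 or 3 kept it, at adjusted p-values of 0.0175 and 0.0267. Leaving out control replicate 2 (0.0946) or knockdown replicate 1 (0.0908), 2 (0.158) or 3 (0.0657) lost it. The log2 fold change stayed between -0.23 and -0.17 with any 1 library left out. GENCODE 29 places the read-through gene AC015813.2 on the same strand, and 86.6% of the 31-base words of the SRSF1 transcript named above also occur in it. AC015813.2 is not analysed here, so a shift of reads between these annotations cannot be told apart from a change in SRSF1.

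The other RS-domain activators that lay apart from the controls did so by smaller margins. SRSF7, which carries a zinc knuckle beside its RNA-recognition motif and also acts in mRNA export, had 117, 117 and 104 CPM in the controls and 104, 102 and 100.4 CPM in knockdown. The groups were separated, but control replicate 3 almost met the highest knockdown library. Its log2 fold change was -0.14 ± 0.05 SE (edgeR adjusted p = 0.199). Without control replicate 3 it was -0.20 with an adjusted p of 0.0413. In that fit 3.57% of all genes passed, against 2.83% with all libraries. Without any other 1 library SRSF7 was not called. SRSF6, an RS protein that promotes inclusion of many alternative exons, had 92.2, 85.7 and 87.5 CPM in the controls and 83.4, 83.7 and 79.7 CPM in knockdown (log2 fold change -0.10 ± 0.05 SE, adjusted p = 0.368). SRSF8, an intron-poor relative of SRSF2, had 26.7, 26.3 and 27.3 CPM in the controls and 25.4, 25.7 and 24.8 CPM in knockdown (log2 fold change -0.08 ± 0.07 SE, adjusted p = 0.67). SRSF2 itself, a component of nuclear speckles, overlapped between groups at 152, 164 and 174 against 156, 149.7 and 148 CPM (log2 fold change -0.11 ± 0.05 SE).

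SRSF4, one of the longest SR proteins, lay on the other side of its controls. It had 47.7, 46.1 and 49.2 CPM in the controls and 51.9, 49.8 and 49.9 CPM in knockdown, all 3 above the controls (log2 fold change 0.09 ± 0.06 SE, adjusted p = 0.544). SRSF3, the shortest SR protein at 164 codons, overlapped between the groups at 214, 205 and 198 against 194, 198 and 205 CPM. The remaining SR genes also overlapped, with log2 fold changes of -0.09 for SRSF10, -0.06 for SRSF5, -0.03 for SRSF11 and 0.03 for SRSF9. SRSF12 was scarcely expressed, at 1.24 ± 0.10 CPM in the controls (SD, n = 3), and its 95% interval of -44.4% to 42.2% leaves its direction unsettled.

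**Figure D4:**
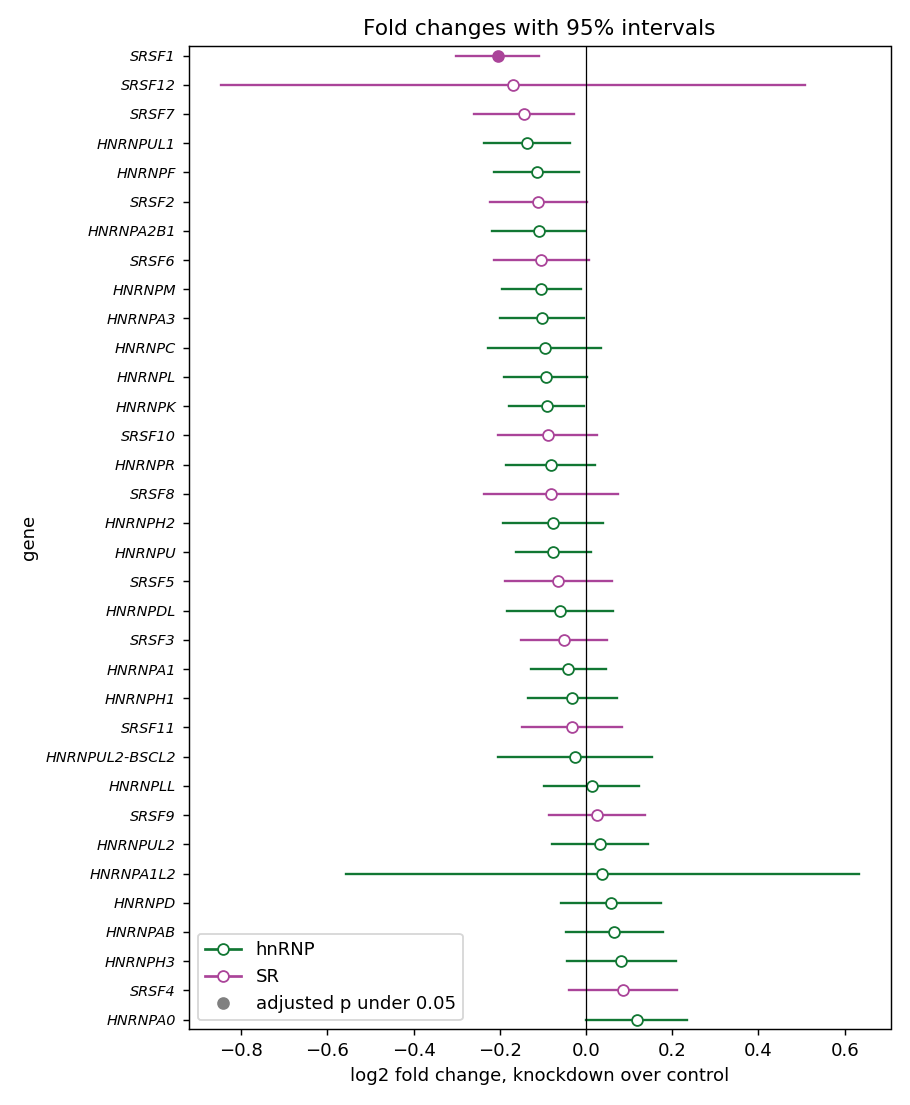
Points are log2 fold changes of knockdown over control and lines their 95% intervals, from 3 libraries a group, with hnRNP genes in green and SR genes in purple. Only SRSF1, the filled point at -0.21, passed an adjusted p of 0.05, and the intervals of SRSF12 and HNRNPA1L2 are the widest.

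Among the hnRNPs of the A/B group, which bind UAG-like elements and silence exons, HNRNPA3 had 317, 304 and 309 CPM in the controls and 301, 277 and 288 CPM in knockdown (log2 fold change -0.10 ± 0.05 SE, edgeR adjusted p = 0.298). HNRNPA2B1, also a sorter of RNAs to vesicles and neurites, had 452, 398 and 402 CPM against 392, 382 and 386 CPM (log2 fold change -0.11 ± 0.05 SE, adjusted p = 0.319). The groups did not overlap in either gene, and in HNRNPA2B1 control replicate 1 stood well above the other controls. Without that library the log2 fold change of HNRNPA2B1 was -0.05 (edgeR adjusted p = 0.595). HNRNPA1, the most studied exon silencer, had 535, 535 and 555 CPM in the controls and 523, 524 and 534 CPM in knockdown. Its groups were apart by about 1 CPM, and its log2 fold change was only -0.04 ± 0.04 SE (adjusted p = 0.713). HNRNPA0, which binds AU-rich elements in cytokine mRNAs, had the highest fold change of the 34, with 78.8, 84.0 and 89.0 CPM in the controls and 90.9, 88.7 and 93.7 CPM in knockdown. Its groups overlapped (log2 fold change 0.12 ± 0.06 SE, adjusted p = 0.332). HNRNPAB overlapped too, at a log2 fold change of 0.07.

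In the F/H group, whose members bind runs of G, the 4 genes did not share a direction. HNRNPF had 259.6, 250.4 and 237 CPM in the controls and 234, 225 and 230.3 CPM in knockdown, with no overlap (log2 fold change -0.11 ± 0.05 SE, adjusted p = 0.241). HNRNPH3 had 48.0, 47.0 and 44.4 CPM in the controls and 49.2, 48.9 and 49.4 CPM in knockdown, all above the controls (log2 fold change 0.08 ± 0.06 SE, adjusted p = 0.572). HNRNPH1 and HNRNPH2 overlapped between groups, with log2 fold changes of -0.03 and -0.08. HNRNPD and HNRNPDL, closely related binders of AU-rich elements that can speed mRNA decay, both overlapped, at 0.06 and -0.06.

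HNRNPUL1, a relative of HNRNPU with a role in DNA repair and RNA export, had the smallest p of the hnRNP genes. It stood at 234, 255 and 254 CPM in the controls and 221, 230.3 and 226 CPM in knockdown. Control replicate 1 was the lowest control, only slightly above knockdown replicate 2. The log2 fold change was -0.14 ± 0.05 SE (edgeR adjusted p = 0.153). Without control replicate 1 it was -0.17 with an adjusted p of 0.0182. In that fit 3.96% of all genes passed, against 2.83% with all libraries. Without any other 1 library HNRNPUL1 was not called. HNRNPU, a nuclear scaffold protein that ties RNA to chromatin, had 737, 721 and 748 CPM against 691, 697 and 704 CPM, without overlap (log2 fold change -0.08 ± 0.04 SE, adjusted p = 0.406). For HNRNPUL2 the value was 0.03, and for the read-through HNRNPUL2-BSCL2 -0.03, both with overlapping groups.

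HNRNPK, a KH-domain protein that binds runs of C, had 652, 638 and 636 CPM in the controls and 610.3, 595 and 603 CPM in knockdown, a small but separated difference (log2 fold change -0.09 ± 0.04 SE, adjusted p = 0.297). HNRNPM, which binds GU-rich RNA, had 197, 199 and 204 CPM against 189, 184 and 187 CPM (log2 fold change -0.10 ± 0.04 SE, adjusted p = 0.253). Its libraries were tight, with an SD of 3.55 CPM in the controls and 2.33 CPM in knockdown, and the groups did not overlap. HNRNPL, which binds CA repeats, had 174, 185 and 184 CPM against 171, 172 and 166 CPM (log2 fold change -0.09 ± 0.05 SE, adjusted p = 0.35). HNRNPR had 156, 144 and 143 CPM against 141, 138 and 139.7 CPM (log2 fold change -0.08 ± 0.05 SE, adjusted p = 0.461). Both were separated, HNRNPR by less than 2 CPM. Without control replicate 1 the log2 fold change was -0.04 for HNRNPR and -0.12 for HNRNPL. HNRNPLL, the relative of HNRNPL known for splicing CD45 in lymphocytes, showed no separation (log2 fold change 0.01, 95% interval -6.52% to 8.91%).

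HNRNPC, which packages long nascent transcripts and binds runs of U, had the most widely spread controls of the abundant hnRNP genes. It had 640.3, 561 and 515 CPM in the controls and 539, 529.8 and 537 CPM in knockdown. Control replicate 1 was the highest of the 6 and control replicate 3 the lowest, so the knockdown libraries lay inside the range of the controls (log2 fold change -0.10 ± 0.06 SE, adjusted p = 0.507). Without control replicate 1 the log2 fold change was -0.0073. Without control replicate 3 it was -0.16 (edgeR adjusted p = 0.0915).

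**Figure D5:**
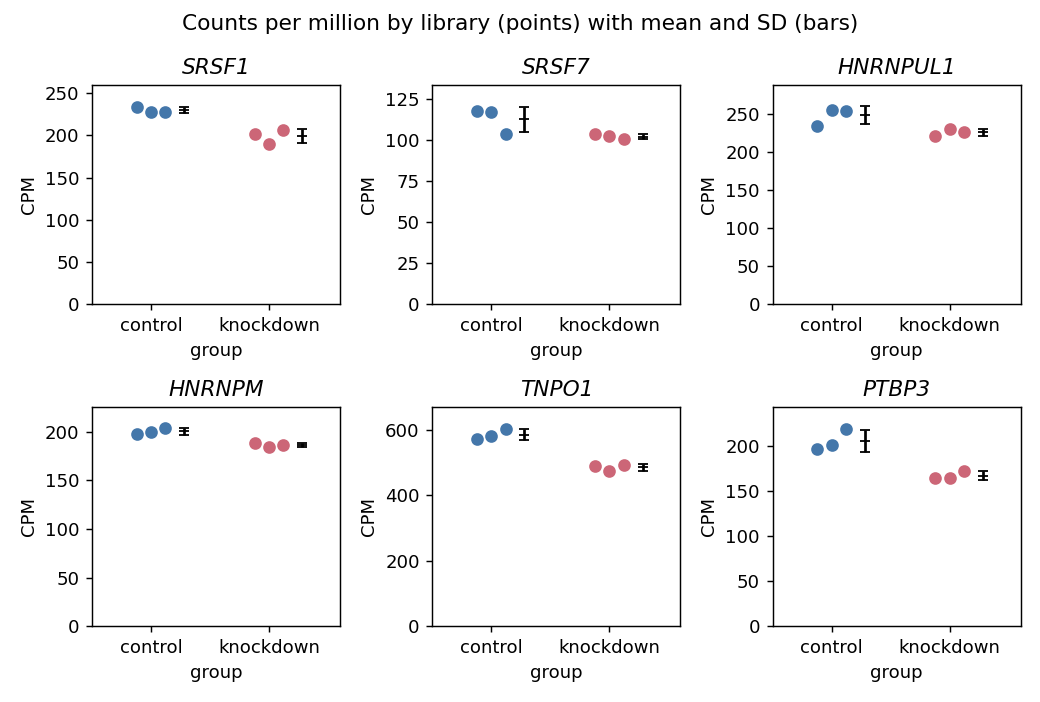
CPM of 6 genes on the y axis, which starts at 0, by group on the x axis, with 1 point per library and the mean and SD of 3 libraries as bars. SRSF1, TNPO1 and PTBP3 passed an adjusted p of 0.05, and SRSF7, HNRNPUL1 and HNRNPM did not.

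Levels between genes were compared per length, as CPM per kilobase (kb) of the median annotated coding transcript. In the controls HNRNPC was highest at 358 ± 39.8 CPM per kb (SD, n = 3), followed by HNRNPA1 at 321 ± 6.92, and these 2 overlapped over their libraries. Below them came HNRNPK at 230.2 ± 3.10, HNRNPU at 174 ± 3.26, SRSF1 at 162 ± 2.59, HNRNPA3 at 150.0 ± 3.29 and HNRNPA2B1 at 119 ± 8.67 CPM per kb, each further from its neighbour than the SDs. SRSF1 was thus the most abundant SR gene on this scale. The ranking depends on annotated lengths, as which transcripts were expressed was not measured. SRSF1 and SRSF3 were closer before division by length, at 229.8 and 206 CPM in the controls with lengths of 1415 and 2545.5 bases. Reads of SRSF1 may also be shared with AC015813.2, as described above. Within the SR genes, a group of 4 followed at like levels, SRSF2 at 84.8 ± 5.73, SRSF9 at 84.1 ± 4.22, SRSF3 at 80.8 ± 3.24 and SRSF5 at 78.6 ± 5.86 CPM per kb. Their ranges of mean ± SD overlapped. The scarcest members were SRSF12 at 0.34 ± 0.03 and HNRNPA1L2 at 1.28 ± 0.27 CPM per kb.

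Gene-level counts mix the transcripts of a gene, productive and not. GENCODE 29 annotates at least 1 nonsense-mediated-decay transcript for all 12 SR genes and for 14 of the 22 hnRNP genes (63.6%), against 43.6% of the 11970 protein-coding genes tested. At least 1 transcript with a retained intron is annotated for 9 SR genes (75%) and 14 hnRNP genes, against 57.9%. HNRNPH1 has 50 annotated transcripts, of which 16 retain an intron, and SRSF7 has 12, of which 6 are decay substrates. These are properties of the annotation and were not measured in the libraries.

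Several members share annotated transcript sequence with other genes. How reads were split between such genes was not examined. In 13 of the 34 members more than 10% of the 31-base words of the reference transcript also occur in another gene, and in 7 none does. For HNRNPA1L2, an intronless copy of HNRNPA1, 76.4% are shared, for HNRNPA3 53.3% (mostly with the pseudogene HNRNPA3P6), for HNRNPL 39.5%, for HNRNPC 39.4%, for HNRNPK 30.9% and for HNRNPA1 30.1%. HNRNPUL2-BSCL2 shares 99.2%, most of it with HNRNPUL2. It held 31.5, 35.6 and 34.7 CPM in the controls, while BSCL2 itself had 5 to 24 counts in any library. Values of these genes are therefore less certain. For 16 members another gene lies on the opposite strand, and whether counting used strand is not stated. HNRNPUL1 overlaps TGFB1 in this way, HNRNPU overlaps COX20 and HNRNPA2B1 overlaps CBX3. Those partners had log2 fold changes of 0.09, 0.0099 and 0.0071, none past the threshold.

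The 250 bases before the RefSeq start of a gene were available for 32 members (21 hnRNP and 11 SR genes, GRCh38.p14) and are rich in CpG. The members' median was 25.5 CpG and 65.8% GC, against 11 CpG and 58% GC for 35116 genes. A set of 8 known promoter words were searched on both strands, chosen with the fold changes known. The GC box (GGGCGG) was in 21 members (65.6%, against 42.6% of all), the CCAAT box (CCAAT) in 16 (50%, against 32%) and the E-box CACGTG in 6 (18.8%, against 6.34%). All 6 with the E-box were hnRNP genes: HNRNPA3, HNRNPD, HNRNPDL, HNRNPH2, HNRNPH3 and HNRNPM. The ETS core (CCGGAAG) was in 5 members (15.6%, against 8.52%) and the TATA box (TATAAA) in 5 (15.6%, against 10.7%). The CRE (TGACGTCA, 1.65% of all), the NRF1 consensus (1.03%) and the YY1 word (AAGATGGC, 1.36%) were in no member. These words do not contain each other. The 35116 genes were not limited to those tested and were not matched to the members in GC content, so these shares compare unlike sets. HNRNPUL2 and its read-through HNRNPUL2-BSCL2, whose annotated starts lie close together, were counted separately for the GC box and the CCAAT box. The windows of SRSF1, the member that fell, and of HNRNPM and HNRNPH3 are shown 5′ to 3′ on the gene's strand (chr17:58007247-58007496, minus strand; chr19:8444725-8444974, plus strand; chr10:68331443-68331692, plus strand). HNRNPM and HNRNPH3 share the E-box but lay on opposite sides of their controls. Neither passed the threshold, and a role of the E-box was not tested. Capitals mark the words searched.
SRSF1: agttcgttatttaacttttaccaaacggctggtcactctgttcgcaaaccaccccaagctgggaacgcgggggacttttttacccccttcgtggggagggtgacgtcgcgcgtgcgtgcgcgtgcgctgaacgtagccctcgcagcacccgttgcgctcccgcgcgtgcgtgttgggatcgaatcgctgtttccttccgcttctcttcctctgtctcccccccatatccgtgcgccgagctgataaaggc
HNRNPM: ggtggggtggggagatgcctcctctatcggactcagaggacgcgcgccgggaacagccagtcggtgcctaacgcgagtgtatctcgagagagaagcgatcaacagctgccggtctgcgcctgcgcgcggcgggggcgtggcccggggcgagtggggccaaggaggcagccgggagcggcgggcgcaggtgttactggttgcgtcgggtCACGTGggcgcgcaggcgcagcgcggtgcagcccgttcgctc
HNRNPH3: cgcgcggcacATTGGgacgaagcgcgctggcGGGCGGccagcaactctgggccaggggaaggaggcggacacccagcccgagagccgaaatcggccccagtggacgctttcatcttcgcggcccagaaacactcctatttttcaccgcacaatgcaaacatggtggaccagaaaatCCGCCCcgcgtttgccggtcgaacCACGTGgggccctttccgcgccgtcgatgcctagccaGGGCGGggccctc
The SRSF1 window held none of the 8 words and was 60% GC. The HNRNPM window held the E-box alone, and the HNRNPH3 window held an E-box, a CCAAT box and 3 GC boxes. GENCODE 29 annotates earlier starts for all 3 genes, at 68331174 for HNRNPH3 and 8444767 for HNRNPM. All of the HNRNPH3 window, most of the HNRNPM window and part of the SRSF1 window therefore lie inside the annotated genes.

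Genes that work with these families were taken from lists written with earlier results known. Of 14 tested kinases, methyltransferases and importers of SR and hnRNP proteins, 1 fell (7.14%, against 1.61% of all genes) and none rose (1.22% of all genes), with a median log2 fold change of -0.01. That gene was TNPO1, transportin-1, the import receptor that carries HNRNPA1 and related hnRNPs into the nucleus. TNPO1 had 570.3, 579.8 and 603 CPM in the controls and 489, 474 and 493 CPM in knockdown, clearly apart. Its mean went from 584 ± 16.6 to 485 ± 10.1 CPM (SD over 3 libraries). The change was -0.27 ± 0.04 SE on the log2 scale with an edgeR adjusted p of 0.00219, which stayed at or below 0.0349 with any 1 library left out. TNPO3, which imports SR proteins, overlapped between groups (log2 fold change 0.08), and so did the SR kinases CLK1 (-0.01), CLK2 (-0.01), CLK3 (0.10), CLK4 (0.02) and SRPK1 (-0.05). SRPK2 had 35.9, 34.0 and 36.7 CPM against 33.9, 27.3 and 29.6 CPM, narrowly apart (log2 fold change -0.23 ± 0.08 SE, adjusted p = 0.166). PRMT1 and PRMT5, both at -0.08, also lay below their controls. So 4 of the 14 genes were separated below and 0 above (10.4% and 9.61% of all genes). Of the list, 10 genes were below 0 (71.4%, against 50.6%). At an unadjusted p under 0.05 there were 2 lower (14.3%, against 8.21%) and 0 higher (6.89% of all genes).

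Of 27 tested RNA-binding splicing regulators of other families, 1 fell (3.7%, against 1.61% of all genes) and none rose, with 18 below 0 (66.7%, against 50.6%) and a median of -0.06. At an unadjusted p under 0.05 there were 7 lower (25.9%, against 8.21%) and 2 higher (7.41%, against 6.89%). DESeq2 called PTBP3 and SFPQ, and limma-voom called 1 gene. The largest fold change of the list was that of RBFOX2, a binder of GCAUG, with 9.07, 11.4 and 7.70 CPM in the controls and 13.1, 12.1 and 12.5 CPM in knockdown, all above the controls (log2 fold change 0.41 ± 0.13 SE, edgeR adjusted p = 0.119). PTBP3, a paralog of the exon silencer PTBP1, had 197, 202 and 219 CPM in the controls and 165, 165 and 173 CPM in knockdown, without overlap. The log2 fold change was -0.30 ± 0.05 SE (edgeR adjusted p = 0.00342), and the adjusted p stayed at or below 0.0423 with any 1 library left out. PTBP1, known as hnRNP I, had overlapping groups at -0.05. Other hnRNPs that carry names of their own lay close to 0, with log2 fold changes of -0.02 for PCBP1, 0.01 for PCBP2, -0.0034 for RALY and 0.0013 for SYNCRIP, all with overlapping groups. RBMX had a log2 fold change of -0.08 (adjusted p = 0.452), with its knockdown libraries below the controls.

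The core spliceosome had 0 of 41 genes past the threshold in edgeR (11 lower and 0 higher at an unadjusted p under 0.05), 0 in DESeq2 and 0 in limma-voom. The lower genes were 26.8% of the list, against 8.21% of all genes, and 32 lay below 0 (78%, against 50.6%), with a median of -0.08. Its gene with the smallest p was CDC5L, a subunit of the Prp19 complex, at -0.17 ± 0.05 SE (adjusted p = 0.0933). The 20 SR-like and SR-related genes had none past the threshold in edgeR (3 lower and 1 higher at an unadjusted p under 0.05), 0 in DESeq2 and 0 in limma-voom. The lower genes were 15% of that list and the higher 5%, 13 lay below 0 (65%), and the median was -0.0065. THRAP3, an RS protein of transcription and splicing complexes, had a log2 fold change of -0.16 ± 0.05 SE (adjusted p = 0.069). SON, the speckle scaffold, had 421, 429 and 447 CPM in the controls and 469.6, 465 and 472 CPM in knockdown, all higher (log2 fold change 0.12 ± 0.04 SE, adjusted p = 0.172).

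The libraries held 10450043 to 12113848 counts in the controls and 12029360 to 14181343 in knockdown, so a gene at 0 counts in 1 library could be at up to 0.21 to 0.29 CPM (3 counts, counting error only). All 12 macrophage markers listed were detected, with CSF1R at 1744 ± 47.5, CD68 at 1131 ± 85.1 and SPI1 at 620.3 ± 38.3 CPM in the controls (SD, n = 3), while the IL-4 marker MRC1 was at only 1.76 ± 0.58 CPM. CD14, CD163 and ITGAX rose and LYZ fell past the threshold, 4 of the 12 markers (33.3%, against 2.83% of all genes). The summed level of all 12 markers, to which CSF1R and CD68 added most, was 4665 to 4787 CPM in the controls and 4719 to 4841 in knockdown. This sum does not show the changes of the less abundant markers. Markers of myeloid progenitors summed to 80.1 to 88.2 CPM in the controls and 74.8 to 80.3 in knockdown, with none of 4 tested genes past the threshold. T cell markers (CD3D, CD3E and CD3G) are not analysed here, epithelial markers were below 0.39 CPM and B cell and fibroblast markers below 3 CPM. In bulk RNA, fewer cells of a type and less RNA per cell cannot be told apart.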

How the data were processed

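Polyadenylated RNA was sequenced from 3 control and 3 knockdown libraries, grouped by sample title. The submitters' processing notes name Salmon 0.11.2, DESeq2 and hg38 without saying what each did. Values in the authors' deposited table are expected counts by symbol, all whole numbers, with a lowest row sum of 10. They are estimates that split reads between genes sharing sequence.

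Counts were used as deposited. The main test was the two-sided quasi-likelihood test of edgeR 4.0.16 after filterByExpr, with TMM factors, a model of group alone and Benjamini-Hochberg adjustment over every gene kept (threshold 0.05). CPM values use TMM factors. The SE is the fold change over the square root of F, and 95% intervals derive from it. DESeq2 1.42.0, limma 3.58.1, other normalizations and filters, the replicate number as a block, an adjusted p under 0.1 and leaving out each library were alternatives, with R 4.3.3, Python 3.11.15 and matplotlib 3.10.9. Members and gene lists were chosen with earlier results of these data known. Every member is accounted for. All 6 values are given for members past the threshold or with non-overlapping groups, the smallest p-values (5 hnRNP, 4 SR) and the 3 most abundant of each family. For the lists, genes past the threshold or with the smallest p are named. SRPK2, PRMT1, PRMT5, TNPO3, the CLK kinases, SRPK1, PTBP1, SON, HNRNPA0, RBFOX2, SFPQ, PCBP1, PCBP2, RALY and SYNCRIP were named after their values were seen.

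Positions, transcript types, lengths and shared 31-base words came from GENCODE 29 (GRCh38), which matched all 34 symbols. For HNRNPUL2-BSCL2 its single transcript, a decay substrate, was used. No protein sequences were used here. From the list of hnRNP proteins with other names, 1 gene and the list's counts are not reported here. Libraries of a group differed by more than counting error (chi-square per degree of freedom 1.91 to 6.79), so none was a copy of another. This cannot tell separate cultures from repeated preparations of 1 culture.

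The test was run first on simulated data (5 simulations of knockdown against control, 200 of 13405 genes changed). It called 4.4% of genes changed 1.1-fold, 43.2% changed 1.25-fold and 72.8% changed 1.5-fold, and 4.14% of calls were unchanged genes. Most 1.1-fold changes in genes drawn at random from all those tested are therefore missed at this size. Rates for genes as abundant as most members were not simulated separately.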

Additional observations from a re-analysis of the deposited data

How the results depend on the processing

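Under the alternatives that kept all 6 libraries (DESeq2, limma-voom, RLE or upper-quartile factors, no filter, at least 1 CPM in at least 3 libraries, the replicate block), SRSF1 was called lower, no other member was called, 25 members lay below 0, and no member changed direction or side of the threshold. Under those alternatives 1.94% to 3.64% of all genes passed. With an adjusted p under 0.1, all genes called numbered 637 (4.75%) against 379 (2.83%), with members unchanged at 1 (2.94%). The members' median ran from -0.09 to -0.05 with 1 library left out. All genes called then ran from 139 to 542, with 0.617% to 2.4% of all genes called lower and 0.404% to 1.57% higher. Members called lower ran from 0 to 2, members called higher stayed at 0 and members below 0 ran from 24 to 26. The second members were HNRNPUL1 without control replicate 1 (2.4% of all genes lower) and SRSF7 without control replicate 3 (2.24% of all genes lower). SRSF1 was not called without control replicate 2 or any 1 knockdown replicate.

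With 1 library left out, 5 members changed direction, and their log2 fold changes ran from -0.11 to 0.17 in HNRNPA1L2 (below 0 without control 3, and -0.08 without knockdown 1), from -0.12 to 0.0018 in HNRNPDL (above 0 without control 1), from -0.0046 to 0.047 in HNRNPLL (below 0 without knockdown 1, and -0.0031 without control 2), from -0.12 to 0.022 in HNRNPUL2-BSCL2 (above 0 without knockdown 1, 0.016 without knockdown 2 and 0.015 without control 2) and from -0.0034 to 0.068 in SRSF9 (below 0 without control 2, and -0.00087 without knockdown 2). With the replicate block 488 genes passed overall. Same-numbered libraries correlated in their deviations from the group means at 0.12, 0.16 and 0.096 over 7621 genes, each best with its own number, a hint from the data only. Of 32 members with at least 4 log2 CPM, 24 lay below 0, a choice made after seeing the data. Normalizations shifted the median of all genes by at most 0.0044. Counts below about 2 CPM (SRSF12, HNRNPA1L2) give no direction.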

Other observations

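Among names the rule leaves out, the pseudogenes HNRNPA1P10, HNRNPA1P48, HNRNPA1P54 and HNRNPCP1 had between 0 and 22 counts in any library. The read-through RPL36A-HNRNPH2 had 0 counts in the 3 controls, 8 and 6 in knockdown replicates 1 and 3 and 0 in knockdown replicate 2. HNRNPH2, whose transcript shares 15.2% of its 31-base words with that read-through, had about 100 CPM, so these counts are small beside it.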
